A study of Mus musculus with 2 samples.

Results

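The choroid plexus epithelium was followed through 10 of its marker genes, Ttr, Enpp2, Folr1, Prlr, Kl, Aqp1, Car12, Clic6, Otx2 and Calml4. They were taken from a list of symbols, matched to the tables by Ensembl identifier, and are 10 of 43309 nuclear mouse genes listed. The data are 2 RNA-seq libraries from the hindbrain of newborn mice of strain B6NCrl, 1 from pup 1 (replicate 1) and 1 from pup 3 (replicate 2), both aged 0 day. The pups form 1 group, with no treatment or engineered allele stated, sex not collected, and a donor record that both share. Each library was made from 13 pg of total RNA above 200 nt, extracted with mirVana from the hindbrain of a single pup. That amount is called 1 cell-equivalent, the assay is named single cell RNA-seq, and a Smart-seq protocol is pointed to. Each library therefore holds RNA of the mixed cells of a hindbrain, in which fewer cells of a type and less RNA per cell cannot be told apart.

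The choroid plexus is a secretory epithelium that hangs into the brain ventricles, in the hindbrain into the fourth ventricle, and grows out of the roof plate of the neural tube. Its cells make cerebrospinal fluid by moving ions and water from blood to ventricle. They also carry vitamins and hormones across the same barrier and secrete carrier proteins and enzymes into the fluid.

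The libraries held 35462381 expected counts (pup 1) and 29866728 (pup 3), of which nuclear mouse genes took 94.4% and 94.7%. Detection means 5 or more expected counts, which 12251 nuclear genes reached in pup 1 and 10527 in pup 3. Levels are TPM, transcript abundances scaled for length, set to a total of 1000000 over nuclear genes. Where a library had no count of a gene, a floor of 3 counts was used in its place, at the shorter of the effective lengths deposited for that gene in the 2 libraries, so that folds written as at least are lower bounds. Amplified reads are not independent molecules, so floors and intervals cover counting error only. Differences between the pups rest on 1 library each and were not tested. Of hindbrain genes, Hoxb5 was at 93.2 and 124 TPM and Hoxa2 at 10.3 and 15.6 TPM. Both were chosen after their values were seen, so they are no independent check of the label. Of 9 genes listed for the forebrain, 7 had 0 counts in both pups. Neurod6 was at 18.6 and 49.4 TPM and Eomes had 0 and 558 counts, and the cells they came from were not tested.

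The 10 genes were grouped by their values in these 2 libraries. They held a set at like levels in both pups, a set found mostly in 1 pup, 2 genes without counts, and Car12. Ttr, Enpp2 and Folr1 were well detected in both pups, with TPM values that differed by at most 1.34-fold between the pups. Car12 was detected in both but from different transcripts. Otx2, Prlr and Calml4 were far higher in pup 3, Aqp1 was higher in pup 1, and Clic6 and Kl had 0 counts in either library. At the detection threshold 6 of the 10 (60%) were found in both pups, 2 (Prlr and Calml4) in pup 3 alone and 2 in neither. Of 21461 protein-coding genes 37.8% were found in both pups, 12.3% in pup 1 alone, 5.45% in pup 3 alone and 44.5% in neither, and 41.4% had 0 counts in both. Of these 6, Aqp1 in pup 3 and Otx2 in pup 1 lay exactly at the threshold, with 5 counts each, so that 4 remained at a minimum of 10 counts.

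**Figure D1:**
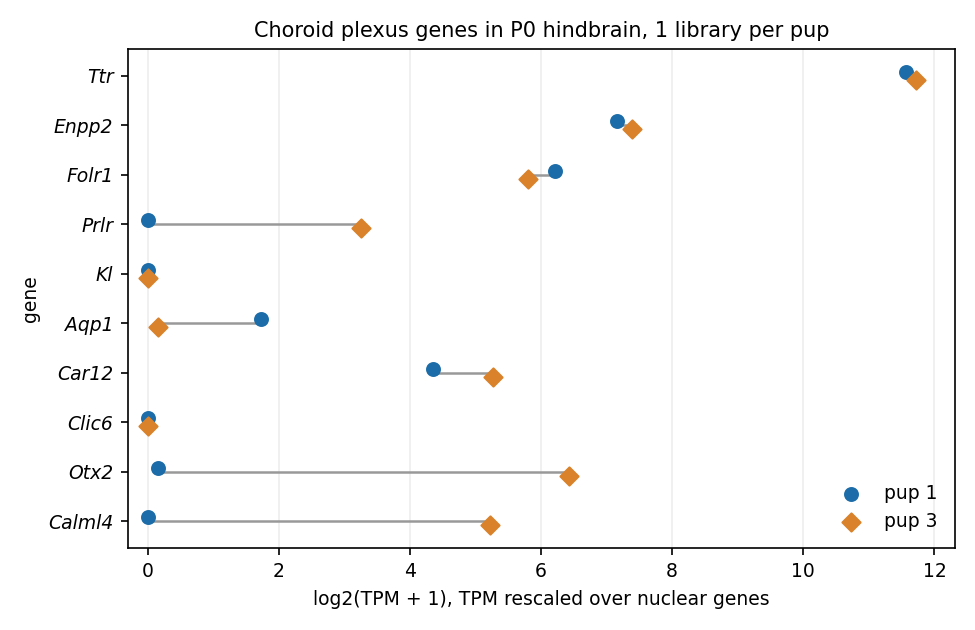
Level of each choroid plexus gene as log2(TPM + 1), with TPM rescaled over nuclear genes, in pup 1 (blue circles) and pup 3 (orange diamonds), 1 library each, joined by a line. Ttr, Enpp2 and Folr1 lie close together in the pups, Otx2, Prlr and Calml4 lie far to the right in pup 3, and Kl and Clic6 lie at 0.

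Ttr encodes transthyretin, the carrier of thyroid hormone and of retinol-binding protein, and is the most abundant messenger of this epithelium. Ttr (ENSMUSG00000061808.3, chr18:20665280-20674321, plus strand) had 70268 counts in pup 1 and 69161 in pup 3, or 3028 and 3380.4 TPM (3204 ± 249, SD, n = 2). It ranked 15th and 14th among protein-coding genes, so this single epithelial product stood among the most abundant messengers of the whole hindbrain sample. Its TPM was 1.12-fold higher in pup 3, and its share of nuclear counts 1.16-fold higher (95% counting interval 1.15 to 1.18). The 8102 protein-coding genes detected in both pups had a median log2 ratio (pup 3 over pup 1) of 0.14, beside 0.16 for Ttr. All counts of Ttr came from its single annotated transcript. Ttr made up 92.7% of the summed TPM of the 10 genes in pup 1 and 89.7% in pup 3.

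Other genes of thyroid hormone and retinol were less even than Ttr. Of 11 carriers, transporters and receptors of thyroid hormone and retinol, 4 were detected in both pups, among them the receptor Thra (54.9 ± 32.1 TPM) and Rbp4 (21.9 ± 21.6, SD, n = 2 each). Rbp4, the plasma retinol carrier that binds transthyretin, was 5.63-fold higher in pup 3, at 6.62 and 37.2 TPM. The thyroid hormone binding protein Crym had 2 counts in pup 1 and 768 in pup 3, a ratio of shares of 454 (125 to 3758). Slco1c1, a thyroxine transporter of brain vessels and choroid plexus, had 1031 counts in pup 1 and 0 in pup 3, at least 303-fold higher in pup 1. Of the other 5, Dio2, Dio3, Thrb, Stra6 and Slc16a10 had 0 counts in both. Of the 6 genes of this list with 50 counts in a library, 2 were 4-fold or more higher in pup 3 and 1 in pup 1. Among protein-coding genes with such counts 18.3% and 27.7% were, or 46.1% either way.

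Enpp2 encodes autotaxin, a secreted enzyme that makes lysophosphatidic acid. Enpp2 (ENSMUSG00000022425.11, chr15:54838901-54952892, minus strand) had 8878 counts in pup 1 and 9157 in pup 3, or 143 and 167 TPM (155 ± 17.4, SD, n = 2). Its share of nuclear counts was 1.22-fold higher in pup 3 (1.18 to 1.26), so that it was, after Ttr, the member with the smallest difference in TPM. Oligodendrocyte lineage cells also make Enpp2; the 8 oligodendrocyte genes, 6 of them detected in both pups, summed to 595 TPM in pup 1 and 295 in pup 3, with none at 0 in both, and their part in the level of Enpp2 was not tested. Most of Enpp2 came from Enpp2-201, which skips an exon of 156 bases (chr15:54877776-54877931, minus strand, 52 codons in frame) carried by Enpp2-203 and Enpp2-204. That exon and its absence are shown because the transcript shares of the pups differed there. The exon is in capitals, between 30 coding bases on each side, read 5′ to 3′ from GENCODE M21 transcripts on GRCm38.
Enpp2-204: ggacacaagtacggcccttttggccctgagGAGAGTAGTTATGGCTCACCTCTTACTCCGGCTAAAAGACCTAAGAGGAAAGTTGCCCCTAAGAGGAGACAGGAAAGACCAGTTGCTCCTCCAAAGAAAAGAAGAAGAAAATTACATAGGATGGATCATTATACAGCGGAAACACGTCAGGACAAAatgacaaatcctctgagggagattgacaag
Enpp2-201: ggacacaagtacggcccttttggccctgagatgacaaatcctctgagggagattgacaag
Enpp2-201 took 96.42% of the gene's TPM in pup 1 and 88.51% in pup 3. The transcripts with the exon took 3.58% (346 estimated counts) and 11.5% (1058). Within them Enpp2-203 was at 3.37% and 5.05%, and Enpp2-204 at 0.21% and 6.45%. The interval the authors deposited for Enpp2-204 ran from 0.000178 to 1.26 deposited TPM in pup 1 and from 7.72 to 11.6 in pup 3, without overlap. The intervals for Enpp2-203, from 2.88 to 5.83 and from 5.58 to 9.56, overlapped. The deposited tables used an earlier annotation, in which Enpp2-203 is 3398 nt long against 2745 nt in M21, whereas Enpp2-201 and Enpp2-204 have the same length in both.

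Among the receptors of lysophosphatidic acid, 4 were found in only 1 pup or differed by 4-fold or more. Of 9 receptors and phosphatases, 4 were detected in both pups, Lpar1 and Lpar6 in pup 1 alone and Lpar2 in pup 3 alone. The phosphatases that break the lipid down were in both pups, Plpp3 at 123 ± 25.3, Plpp1 at 81.6 ± 16.7 and Plpp2 at 57.8 ± 2.62 TPM (SD, n = 2). Of the receptors, Lpar1 had 3233 counts in pup 1 and 0 in pup 3 (at least 666-fold higher in pup 1), Lpar6 838 and 0 (at least 246-fold), Lpar2 0 and 635 (at least 238-fold higher in pup 3) and Lpar4 103 and 1352 (14.9-fold higher in pup 3). Lpar3 and Lpar5 had none in either pup. These 4 are 4 of the 7 genes of the list with 50 counts in a library, and 46.1% of protein-coding genes with such counts differed as much.

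Folr1 encodes folate receptor alpha, which carries folate through the choroid plexus into the fluid. Folr1 (ENSMUSG00000001827.7, chr7:101858331-101870788, minus strand) had 922 counts in pup 1 and 627 in pup 3, or 73.2 and 54.5 TPM (63.9 ± 13.2, SD, n = 2). Unlike Ttr and Enpp2 it was higher in pup 1, by 1.34-fold in TPM and 1.24-fold in share of nuclear counts (1.12 to 1.38). Anapc15, a gene on the opposite strand that overlaps Folr1, had 1100 and 3652 counts, higher in the other pup. No source used here says whether counting used strand, so reads of the overlap cannot be assigned with certainty. Folr1-201, the transcript of 960 nt, took 59.58% of the gene's TPM in pup 1 and 63.21% in pup 3, with 779 and 542 estimated counts. Folr1-213, a short model of 331 nt that starts upstream, took 36.47% and 36.79% with 128 and 85 counts. The mixture of transcripts was thus nearly the same in the pups.

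The other folate genes leaned to pup 1. Of 11 genes of folate uptake and use, 4 were detected in both pups, 6 in pup 1 alone and 1, Shmt1, in neither. Mthfd1, an enzyme of the one-carbon cycle, was even at 62.8 ± 2.15 TPM (SD, n = 2). The reduced folate carrier Slc19a1 was 4.12-fold higher in pup 1, at 82.3 and 20.0 TPM. Slc46a1, the proton-coupled folate transporter that serves the choroid plexus together with Folr1, had 2748 counts in pup 1 and 0 in pup 3, at least 615-fold higher in pup 1. The mitochondrial enzyme Shmt2 was 16.4-fold higher in pup 1, and the bounds for Tyms, Folr2 and Slc25a32 were at least 155-fold, 18.5-fold and 16.8-fold. So 7 of the 9 genes with 50 counts in a library differed by 4-fold or more, all 7 higher in pup 1, while 27.7% of protein-coding genes with such counts did so.

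Prlr and Kl mark the hormonal side of the epithelium. Prlr encodes the prolactin receptor, a cytokine receptor that this epithelium makes in large amounts. Prlr (ENSMUSG00000005268.16, chr15:10177238-10349180, plus strand) had 0 counts in pup 1 and 446 in pup 3, or 0 and 8.51 TPM, at least 142-fold higher in pup 3. In that pup 438 of the estimated counts (90.77% of the gene's TPM) were given to Prlr-201, a model of 3205 nt that M21 types as retained intron, and 7.78 counts to the coding model Prlr-206. The coding model Prlr-202 of 9900 nt had 0 counts. The splice donor after exon 8 at which Prlr-201 runs on and Prlr-202 is joined is shown (chr15:10325937-10325996, plus strand, GRCm38), with the retained intron bases in capitals after 30 coding bases.
Prlr-201: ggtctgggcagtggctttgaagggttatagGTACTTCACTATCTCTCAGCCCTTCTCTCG
Prlr-202: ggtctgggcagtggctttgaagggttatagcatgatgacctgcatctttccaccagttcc
Coding transcripts therefore held 9.19% of the TPM of Prlr in pup 3. Of 8657 protein-coding genes with 50 counts or more in pup 3, 5.29% had a coding share below 10%. Over coding transcripts alone Prlr no longer differed by 4-fold with at least 50 counts. Gm21973, a gene on the same strand that overlaps Prlr, had 0 counts in both pups.

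Signalling genes of prolactin and growth hormone were mostly not found. Of 10, only Socs2 was detected in both pups, at 57.2 and 111 TPM, and 7 were detected in neither, the hormones Prl and Gh, the receptor Ghr and the kinase Jak2 with 0 counts. The feedback inhibitor Cish had 1 count in pup 1 and 1110 in pup 3, a ratio of shares of 1313 (235 to 51912). The transcription factor Stat5b had 2 and 997 counts, a ratio of 590 (163 to 4876), and its relative Stat5a 0 and 1.08. Cish and Stat5b were 2 of 3 genes of this list with 50 counts in a library, and 18.3% of protein-coding genes with such counts were 4-fold or more higher in pup 3.

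Kl encodes klotho, a membrane protein with which FGF receptors bind FGF23. Kl (ENSMUSG00000058488.6, chr5:150952607-150993817, plus strand) had 0 counts in both pups, and the floor of 3 counts would have been 0.0289 and 0.0328 TPM. Of 9 genes of the same axis, 4 were detected in both pups: the proteases Adam17 (48.0 ± 10.2 TPM) and Adam10 (31.7 ± 12.9), which cut klotho from the membrane, and the receptors Fgfr3 (34.7 ± 17.3) and Fgfr1 (11.9 ± 13.7, SD, n = 2 each). Fgfr1 was 10.01-fold higher in pup 1, at 21.6 and 2.15 TPM, and Fgfr2 had 299 counts in pup 1 and 0 in pup 3 (at least 76.9-fold higher in pup 1). Fgf23, Klb, Fgfr4 and Cyp27b1 had 0 counts in both.

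Aqp1, Car12 and Clic6 belong to the machinery of fluid secretion. Aqp1 encodes the apical water channel. Aqp1 (ENSMUSG00000004655.5, chr6:55336432-55348555, plus strand) had 121 counts in pup 1 and 5 in pup 3, or 2.31 and 0.112 TPM. It was the single member over 4-fold higher in pup 1, by 20.7-fold in TPM and 20.5-fold in share of nuclear counts (8.53 to 64.1). Red cells and vessels also carry Aqp1. The 8 erythroid genes, 4 detected in both pups, summed to 1486 TPM (pup 1) and 3941 TPM (pup 3), higher in the other pup, with Epb42 among those at 0 in both, and the 9 endothelial genes, 4 detected in both, to 261 and 227 TPM with none at 0 in both. Their part in the level of Aqp1 was not tested. Among 11 further aquaporins the astrocyte channel Aqp4 was in both pups at 84.8 and 66.6 TPM, Aqp3 had 651 counts in pup 1 and 0 in pup 3 (at least 113-fold higher in pup 1), Aqp7 had 1 count in pup 1, and the other 8 had none.

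Car12 encodes a membrane carbonic anhydrase, an enzyme that supplies bicarbonate for secretion. Car12 (ENSMUSG00000032373.10, chr9:66713686-66766845, plus strand) had 393 counts in pup 1 and 2460 in pup 3, or 19.5 and 37.4 TPM (28.4 ± 12.7, SD, n = 2). The difference depended on the scale: it was 1.92-fold in TPM and 7.41-fold in share of nuclear counts (6.65 to 8.26). The effective length the authors deposited for the gene was 974 nt in pup 1 and 3600.3 nt in pup 3, and the counts were given to different transcripts. In pup 1 Car12-203 (710 nt) took 62.0% of the gene's TPM with 153 counts and Car12-205 (1652 nt) 37.76% with 237 counts; M21 types both as retained intron. In pup 3 neither had a count, and the full coding transcript Car12-201 (3716 nt) took 99.46% with 2458 counts, against 0.23% and 3.39 counts in pup 1. The points at which the transcripts part are shown, with intron bases in capitals after 30 coding bases, first after exon 4 (chr9:66747692-66747751, plus strand, GRCm38).
Car12-203: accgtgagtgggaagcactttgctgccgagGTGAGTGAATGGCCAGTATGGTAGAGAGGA
Car12-201: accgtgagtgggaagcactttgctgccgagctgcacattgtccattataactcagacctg
The other point lies after exon 8 (chr9:66753792-66753851, plus strand).
Car12-205: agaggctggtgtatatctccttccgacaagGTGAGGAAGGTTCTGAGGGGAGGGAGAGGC
Car12-201: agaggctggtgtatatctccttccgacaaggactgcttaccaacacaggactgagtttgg
Each read-through begins with GT, the first bases of the intron, and runs 157 bases in Car12-203 and 653 bases in Car12-205 to the end of the model. Coding transcripts held 0.232% of the TPM of Car12 in pup 1 and 100% in pup 3. In pup 1, 4.14% of 9956 protein-coding genes with 50 counts or more had a coding share below 10%. Over coding transcripts alone Car12 was over 4-fold higher in pup 3.

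**Figure D2:**
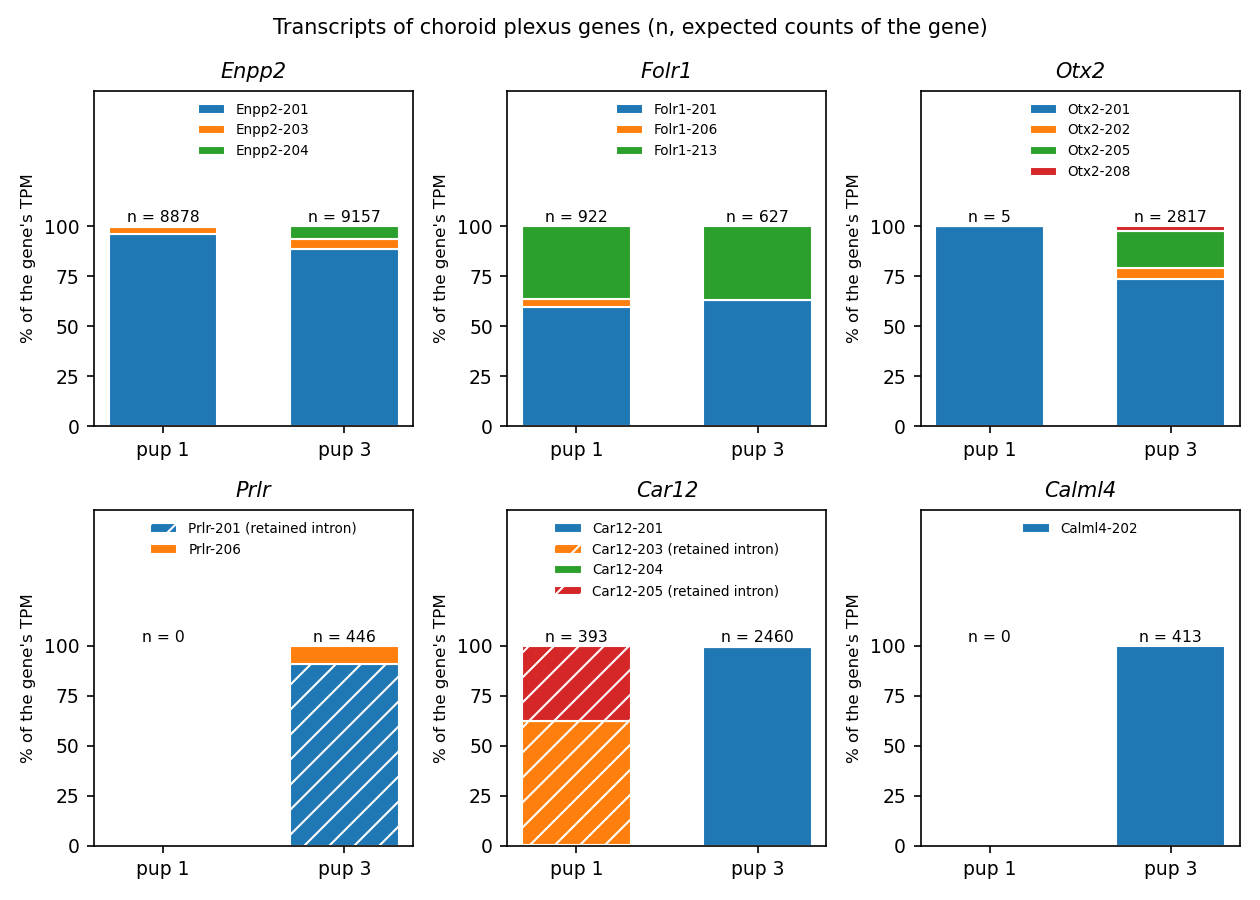
Share of each gene's TPM taken by its transcripts (percent) in pup 1 and pup 3, with the gene's expected count above each bar and transcripts typed as retained intron hatched. Car12 is made up of retained intron models in pup 1 and of the coding Car12-201 in pup 3, Prlr in pup 3 is 90.77% Prlr-201, and Enpp2 and Folr1 keep the same leading transcript in both pups.

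The other carbonic anhydrases and the ion transporters gave a mixed picture. Of 15 further carbonic anhydrases, 3 were detected in both pups, Car2 at 117 ± 0.917, Car8 at 86.5 ± 7.89 and Car10 at 52.2 ± 22.5 TPM (SD, n = 2). Car14 had 1 count in pup 1 and 1116 in pup 3, a ratio of shares of 1320.2 (236 to 52193), like Car12 in favour of pup 3. Car4 had 666 counts in pup 1 and 0 in pup 3 (at least 99.6-fold higher in pup 1), and Car11 124 and 0 (at least 23.3-fold). Of 9 ion transport genes 6 were detected in both pups, led by the sodium pump subunit Atp1b1 (226 ± 12.02 TPM) and the pump regulator Fxyd1 (98.3 ± 47.9, SD, n = 2 each). The potassium chloride cotransporter Slc12a4 had 0 and 515 counts (at least 92.5-fold higher in pup 3). The anion exchanger Slc4a2 had 1277 counts in pup 1 and 0 in pup 3 (at least 121-fold higher in pup 1).

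Clic6 encodes a chloride intracellular channel protein that marks the epithelium. Clic6 (ENSMUSG00000022949.5, chr16:92485736-92541243, plus strand) had 0 counts in both pups, where 3 counts would have been 0.0736 and 0.0834 TPM. Of the 4 other family members Clic4 was in both pups at 31.9 ± 9.32 TPM (SD, n = 2), Clic1 had 899 counts in pup 1 and 2 in pup 3, Clic5 13 and 0, and Clic3 none.

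Otx2 encodes the homeodomain factor that specifies the choroid plexus and maintains it; the midbrain and young cerebellar granule cells also make it. Otx2 (ENSMUSG00000021848.11, chr14:48657677-48673819, minus strand) had 5 counts in pup 1 and 2817 in pup 3, or 0.113 and 85.1 TPM. It was 754-fold higher in pup 3 in TPM and 667-fold higher in share of nuclear counts (285 to 2054), the widest gap among the members detected in both pups. In pup 3 only Ttr and Enpp2 of the 10 genes stood above it in TPM. Of 3609 protein-coding genes with counts within 2-fold of 2817 in pup 3, 5.93% had at most 5 counts in pup 1. The 8 midbrain genes, 2 of them detected in both pups, summed to 81.6 TPM in pup 1 and 25.2 in pup 3. Pou4f1 alone was at 49.3 and 24.7 TPM, and without it the sums were 32.3 and 0.547 TPM. En2, Pax5, Foxa2 and Pitx3 were at 0 in both pups. The 9 forebrain genes summed to 18.6 TPM in pup 1 and 58.2 in pup 3, from Neurod6 and Eomes alone, and the other 7 were at 0 in both. The part of midbrain, forebrain or granule cells in the level of Otx2 was not tested, and no list of granule cell genes was made. The antisense gene Otx2os1, which overlaps Otx2, had 31 counts in pup 1 and 0 in pup 3.

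Otx2 counts in pup 3 were given to models with more than 1 start. Otx2-201, which begins at chr14:48665106 in M21, took 73.48% of the gene's TPM with 2496 estimated counts. Its model in the deposited annotation is 2284 nt long against 2144 nt in M21, so the start used there may differ. The models with upstream starts, Otx2-205 (chr14:48667508), Otx2-202 (chr14:48667513) and Otx2-208 (chr14:48667644), took 18.93%, 5.51% and 2.08% with 153, 138 and 30.2 counts. In that order, the intervals deposited for them in pup 3 ran from 10.9 to 16.5, from 1.01 to 6.65 and from 0.175 to 3.67 deposited TPM. In pup 1 all 5 counts were on Otx2-201. The promoter window of the RefSeq start next to Otx2-201 (300 bases, from 250 before to 50 after the start, GRCm38.p6) is the 1 window among 11 of 6 member genes that holds TAATCC, the motif bound by OTX-type homeodomain factors, here as its reverse complement GGATTA. The 30 bases around it (chr14:48665303-48665332, minus strand) are shown with the match in capitals, which begins 211 bases before that start.
Otx2: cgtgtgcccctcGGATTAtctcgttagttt
The motif was searched on both strands, and 2320 of 32851 RefSeq promoter windows (7.06%) held it. The windows of Aqp1, Calml4, Car12, Kl and Prlr did not hold these letters. TATAAA or its reverse complement TTTATA was in 13.6% of all windows and in 1 of the 11, at another start of Otx2.

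A list of OTX factors and genes linked to the roof plate was low. The list is mixed and holds the OTX factors Otx1 and Crx, so its counts are not those of roof plate genes alone. Whether its other members, such as Pax6, came from the roof plate was not tested. Of 13, 6 were detected in both pups, led by Pax6 (30.1 ± 14.0 TPM), Zic1 (20.5 ± 8.96), Bmp7 (10.9 ± 6.37) and Otx1 (8.79 ± 1.24, SD, n = 2 each). Lmx1a was 5.50-fold higher in pup 1, at 4.36 and 0.793 TPM, and Wnt1 and Lmx1b had 165 and 85 counts in pup 1 and 0 in pup 3 (at least 48.4-fold and 11.3-fold higher in pup 1). Of the 8 genes with 50 counts in a library, 3 were 4-fold or more higher in pup 1 and 0 in pup 3, where 27.7% and 18.3% of protein-coding genes were. Crx, Bmp6, Gdf7, Msx2 and Wnt3a had 0 counts in both.

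Calml4 encodes a calmodulin-like protein of microvilli. Calml4 (ENSMUSG00000032246.9, chr9:62858080-62875921, plus strand) had 0 counts in pup 1 and 413 in pup 3, or 0 and 36.4 TPM, at least 156-fold higher in pup 3. All 413 counts were given to Calml4-202, which lacks an exon of 141 bases (47 codons in frame) that Calml4-201 carries at chr9:62868677-62868817 in M21. Since that exon is what separates the transcripts, it is shown in capitals between 30 coding bases on each side.
Calml4-201: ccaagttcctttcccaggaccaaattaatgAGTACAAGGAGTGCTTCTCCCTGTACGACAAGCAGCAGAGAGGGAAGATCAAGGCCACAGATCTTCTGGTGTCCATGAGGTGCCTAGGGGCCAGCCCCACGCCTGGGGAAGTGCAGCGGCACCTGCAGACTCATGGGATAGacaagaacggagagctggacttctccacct
Calml4-202: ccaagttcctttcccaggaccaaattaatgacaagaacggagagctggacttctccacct
The interval deposited for Calml4-201 in pup 3 reached up to 0.821 deposited TPM, and that for Calml4-202 ran from 28.5 to 34.7. Both models changed between the deposited annotation and M21, from 861 to 864 nt and from 720 to 699 nt. The calmodulins themselves were abundant in both pups, Calm2 at 2884 ± 182 and Calm3 at 449 ± 98.3 TPM (SD, n = 2). The microvillus link genes Myo7b, Ush1c, Anks4b, Cdhr2 and Cdhr5, and Calml3, had 0 counts in both pups.

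Between the pups, 4 of the 8 members with 50 counts in at least 1 library differed by 4-fold or more in TPM, 3 higher in pup 3 (Otx2, Prlr and Calml4) and 1 higher in pup 1 (Aqp1). Among 11245 protein-coding genes with such counts 46.1% differed as much, 18.3% higher in pup 3 and 27.7% higher in pup 1. The share of members that differed was therefore close to that over all genes. With a pseudocount of 1, the members' median log2 ratio (pup 3 over pup 1) was 0.57 (8 members), and that of 11905 protein-coding genes detected in at least 1 pup was -0.16. Over genes detected in both pups the medians were 0.19 for the 6 members and 0.14 for all, and with CPM or the factors of edgeR or DESeq2, which leave length out, the median of the 8 members was 1.38 to 1.54. With libraries at 0 set at 3 counts and no pseudocount the members' median was 0.59. Genes of like abundance were often missing from the other pup: at most 5 counts in pup 1 were found for 20.7% of genes within 2-fold of the count of Prlr in pup 3 and for 20.96% of those within 2-fold of Calml4, and at most 5 counts in pup 3 for 46.5% of those within 2-fold of Aqp1 in pup 1. For genes within 2-fold of Ttr the number was 0 of 58 and 0 of 57. Summed over the 10 genes the level was 3266 (pup 1) and 3769.6 TPM (pup 3), and without Ttr 238 and 389 TPM.

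**Figure D3:**
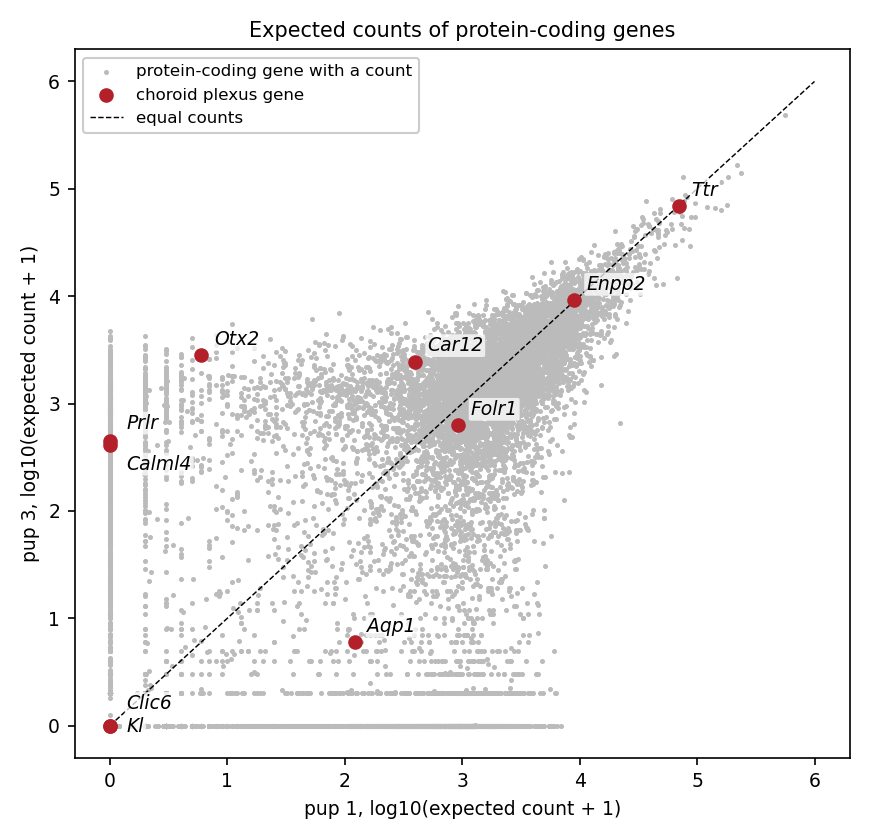
Expected counts in pup 1 (x axis) and pup 3 (y axis), as log10(count + 1), of every protein-coding gene with a count (grey) and of the 10 choroid plexus genes (red), with a dashed line of equal counts. Ttr and Enpp2 lie on the line, Otx2, Prlr and Calml4 lie near the left edge among many other genes, and Aqp1 lies low on the right of the line.

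Other genes of the same epithelium were also split in their detection. Whether other cells of the hindbrain gave part of their counts was not tested. Of 22, 12 were detected in both pups, 4 in pup 1 alone, 2 in pup 3 alone and 4 in neither. The highest were Ecrg4, a secreted peptide precursor (129 ± 12.9 TPM), the monoamine transporter Slc29a4 (59.5 ± 12.1), the serotonin receptor Htr2c (49.9 ± 25.6) and the sodium bicarbonate transporter Slc4a10 (46.6 ± 23.0, SD, n = 2 each). Of 17 with 50 counts in a library, 2 were 4-fold or more higher in pup 3 and 4 in pup 1. Over protein-coding genes with such counts the shares were 18.3% and 27.7%, or 46.1% either way. The secreted signal inhibitor Sostdc1 had 0 counts in pup 1 and 1894 in pup 3 (at least 716-fold higher in pup 3), and the tight junction gene Cldn2 0 and 173 (at least 39.2-fold).

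The potassium channel genes of the list were found in pup 1. Kcnj13 had 1459 counts in pup 1 and 0 in pup 3 (at least 244-fold higher in pup 1) and the channel subunit Kcne2 807 and 0 (at least 233-fold). Tmem72 had 96 and 0 counts (at least 28.2-fold), and the collagen gene Col8a1 was at 23.7 and 4.74 TPM. For 6 genes among the 10 and the 22 of this epithelium, 0 counts in 1 pup stood beside 173 to 1894 counts in the other. They were Prlr, Calml4, Sostdc1 and Cldn2 with 0 in pup 1, and Kcnj13 and Kcne2 with 0 in pup 3. Tmem72 and Slc4a5 had fewer counts, 96 and 13 in pup 1, beside 0 in pup 3. Over all protein-coding genes, 12.3% were detected in pup 1 alone and 5.45% in pup 3 alone, but 44.5% of these genes were detected in neither. Of genes within 2-fold of the counts of Prlr and Calml4 in pup 3, 20.7% and 20.96% had at most 5 counts in pup 1. F5 and Slco1a5 had 0 counts in both pups, like Kl and Clic6. The 22 genes summed to 610.4 TPM in pup 1 and 531 in pup 3. The 18 of them detected in at least 1 pup had a median log2 ratio of -0.70.

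**Figure D4:**
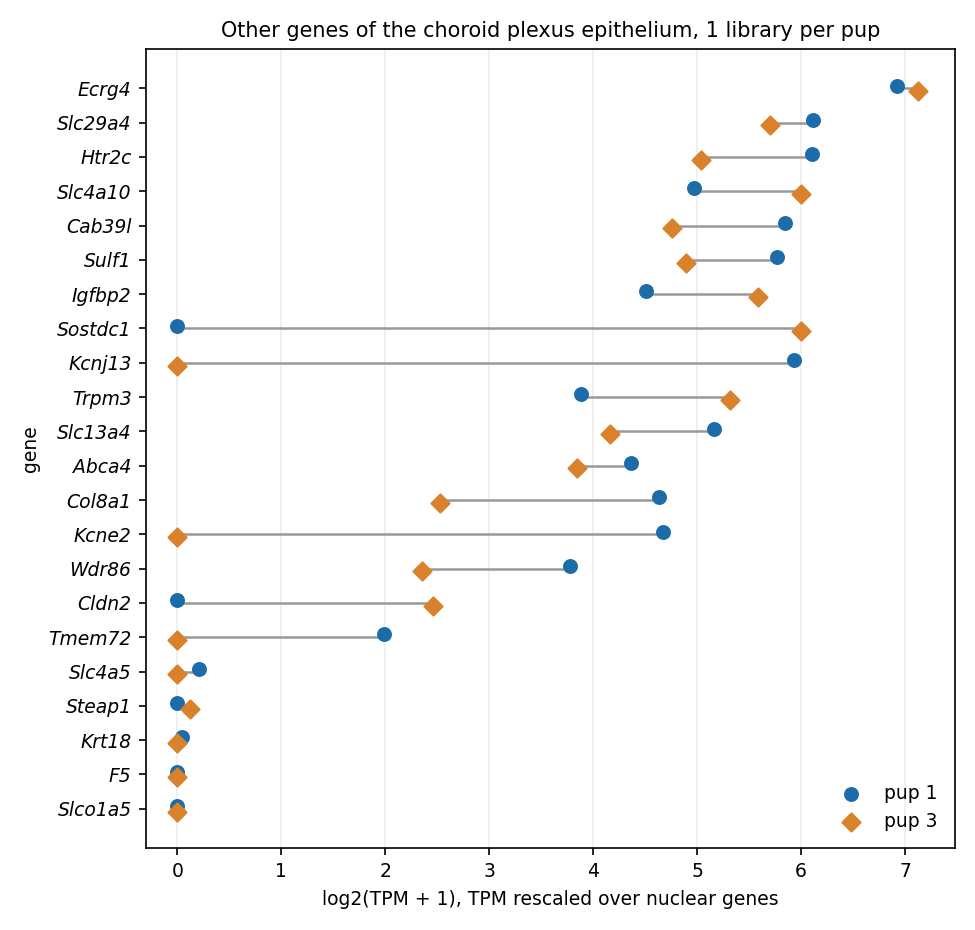
Level of the 22 other choroid plexus epithelium genes as log2(TPM + 1) in pup 1 (blue circles) and pup 3 (orange diamonds), 1 library each, ordered by mean TPM. Ecrg4 is the highest and nearly equal in the pups, Sostdc1 and Cldn2 are at 0 in pup 1, and Kcnj13, Kcne2 and Tmem72 are at 0 in pup 3.

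Markers of neighbouring cells were present beside those of the epithelium. Of 11 ependymal and motile cilia genes, 2 were detected in both pups (Mlf1 and Foxj1) and 4 in pup 1 only, with sums of 91.4 and 106 TPM, or 65.0 and 5.43 TPM without Mlf1, and Mcidas, Gmnc, Rsph1, Tmem212 and Ccdc153 at 0 in both. Of 11 meningeal fibroblast genes 9 were detected in both pups, with sums of 2729 TPM in pup 1 and 4913 in pup 3, mostly from Ptgds, which the choroid plexus also makes, and none at 0 in both. Of 7 liver genes, used because the liver is the other main source of Ttr, Alb, Afp, Apoa2, Serpina1a and Fgb had 0 counts in both pups. The other liver genes were higher in pup 3, Apoa1 at 87 and 617 counts (4.48 and 36.1 TPM) and the transferrin gene Trf at 1 and 344 counts, and the sums were 4.58 and 45.5 TPM. The 7 genes of retina and pineal gland, other tissues with Otx2, were detected in neither pup. The part of the ependymal, meningeal and liver genes' cells in the levels of the 10 genes was not tested.

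**Figure D5:**
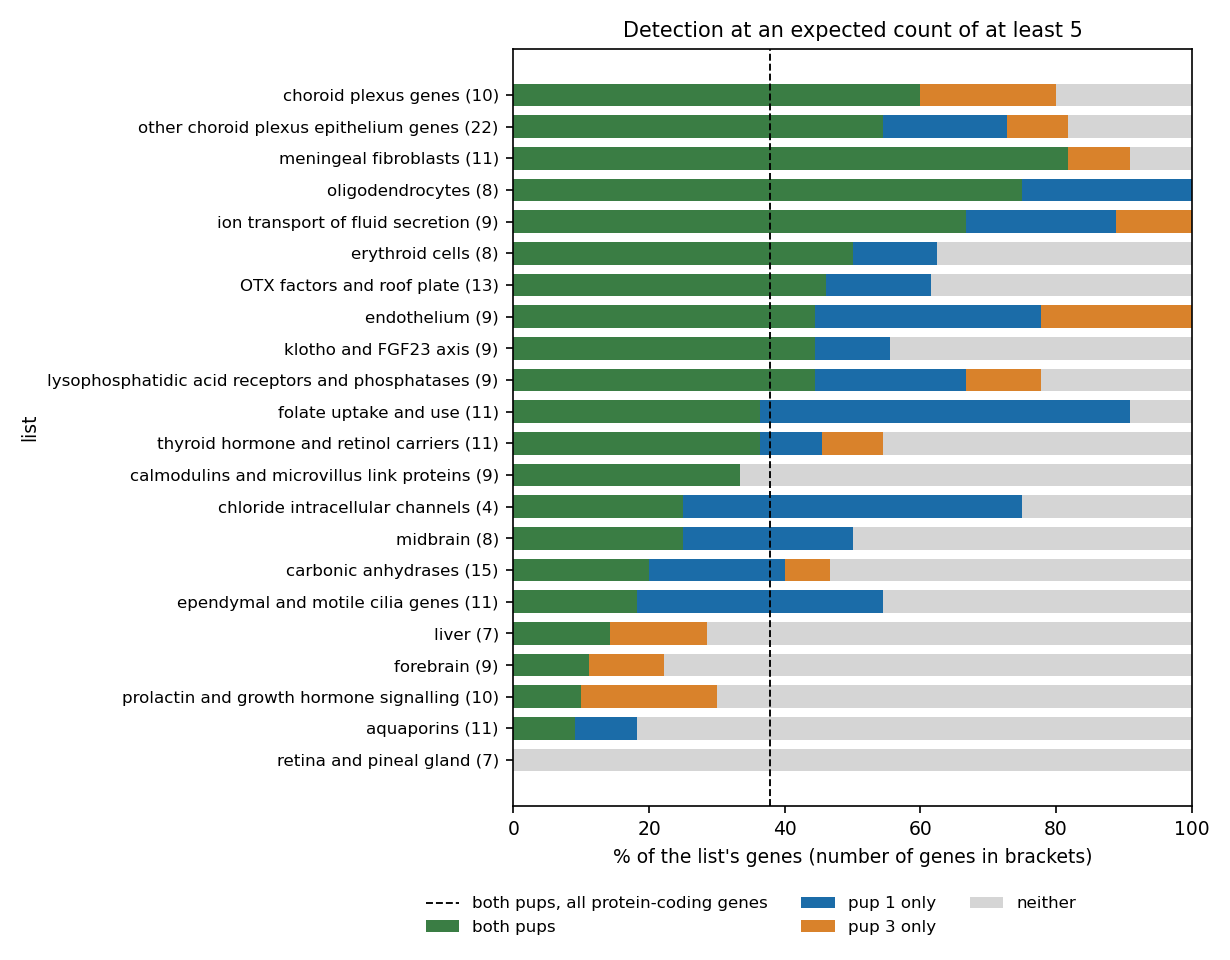
Percent of the genes of each list (number in brackets) with 5 or more expected counts in both pups, in 1 pup or in neither (colours), with a dashed line at the 37.8% of protein-coding genes detected in both. The 10 choroid plexus genes (60%) and the 22 other genes of the epithelium lie to the right of the line, with meningeal fibroblast, oligodendrocyte and ion transport lists farther right and the liver, forebrain and retina and pineal gland lists to its left.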

How the data were processed

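Tables of genes and transcripts were deposited for each library, made on mm10 with annotation M4, per the deposited notes; no source used here names the quantifier, its version or the use of strand. The authors deposited an expected count per feature, in which shared reads are split, together with TPM and FPKM values over all entries, spike-ins and mitochondrial genes included. Per the file headers, each transcript also has its percent of the TPM of its gene, and lower and upper bounds of TPM on the scale of that signal, whose level is not stated.

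Gene identifiers were matched to GENCODE M21 (42462 of 43346, 98.0%), which also gave coordinates (GRCm38, 1-based) and transcript types, and 2 symbols were matched through RefSeq synonyms. TPM was rescaled over nuclear genes. The fold comparison took genes with 50 or more expected counts in 1 library and counted ratios of at least 4; a library at 0 was set at 3 counts with the shorter effective length of the gene, and with 1 to 3 counts the ratio of shares is given with an exact conditional 95% interval. Otherwise ratios of shares have the same interval, and levels are mean ± SD of 2 libraries. With 1 group no test was possible. The fold calls were checked on simulated counts with planted folds and counting error only. That check concerns the code and not the spread between these libraries.

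The 10 genes and the other lists were chosen with earlier results of these data known. Named were the 10 genes, genes that overlap them, and, of each other list described in full, the 4 with the highest mean TPM and those that differed by 4-fold or more; Hoxa2, Hoxb5 and further list members were chosen after their values were seen. A few of the genes so chosen are not reported here. Junctions were read from M21 transcripts and promoters from a RefSeq table, which held 6 of the 10 genes.

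Alternatives were detection at 1 or 10 counts or 1 TPM, thinning of pup 1, folds of 2 and 8, minimum counts of 200 or none, pseudocounts of 0.1 and 5, deposited TPM, FPKM, CPM, and factors of edgeR 4.0.16 and DESeq2 1.42.0 on rounded expected counts (R 4.3.3). Coding transcripts alone, and other detection thresholds for the 22 further genes, were added after seeing the data. Python 3.11.15, pandas 2.3.3, numpy 2.4.6, scipy 1.17.1 and matplotlib 3.10.9 were used.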

Additional observations from a re-analysis of the deposited data

How the results depend on the processing

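With 1 library per pup, each difference rests on a single pair of libraries. For genes at 0 the floor of 3 counts covers counting error only, and does not bound their level in the hindbrain. Of genes within 2-fold of the count of Folr1 in pup 1, 28.3% had at most 5 counts in pup 3. Of those within 2-fold of its count in pup 3, 18.6% had at most 5 in pup 1. The number of choroid plexus genes detected in both pups was 6, and 4 to 6 under the other thresholds and thinning; without replicate 1 the number in the remaining library was 8, and without replicate 2 it was 6. The number that differed by 4-fold or more was 4, and 3 to 5 under the alternatives: a minimum of 200 counts left out Aqp1, and CPM and the factors of edgeR and DESeq2 added Car12, higher in pup 3. The median log2 ratio of the 8 genes moved from 0.57 to 1.54 with CPM, 1.40 with edgeR factors and 1.38 with DESeq2 factors, which do not scale for length; over those detected in both pups it was 0.19. Over all protein-coding genes detected in both pups the median log2 ratio was 0.14, and 0.02 with edgeR factors. None of the 8 genes changed direction in 56 values, 7 alternatives for each. The 12 of 22 further epithelium genes detected in both pups stayed 12 under each threshold tried. No paired analysis was possible because the libraries form 1 group.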
